A study of Mus musculus with 7 samples.

Results

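The 10 genes described here encode apolipoproteins, the proteins that coat lipoprotein particles: Apoa1, Apoa2, Apoa4, Apoa5, Apob, Apoc1, Apoc2, Apoc3, Apoe and Apom. They were chosen by gene symbol, each matched 1 row of the 37468 in every deposited table, and all 10 passed the filter on low values that left 15744 genes for testing. The tables give liver expression of C57BL/6 mice as FPKM, a count of fragments scaled by transcript length and library size, in 7 libraries of 4 groups. SunTag (2 libraries) is liver of SunTag-dCas9 knock-in mice, which carry a cutting-dead Cas9 with a repeated peptide tag that recruits effector proteins, and WT (2 libraries) is liver of wild-type mice. Myod1_active (1 library) is liver of SunTag-dCas9 mice in which the muscle regulator Myod1 was activated, and Myod1_control (2 libraries) is the control liver of that experiment, also from SunTag-dCas9 mice. Sources used here do not say how Myod1 was activated, what the controls received, which promoter drives the transgene or how old the mice were.

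Lipids are insoluble in plasma and travel in particles that apolipoproteins hold together, target to receptors and present to enzymes. Hepatocytes secrete most of these proteins: Apob is the non-exchangeable scaffold of very-low-density lipoprotein (VLDL), Apoa1 and Apoa2 are the main proteins of high-density lipoprotein (HDL), and the C proteins, Apoa5 and Apoe move between particles and set how fast triglyceride is hydrolysed and remnants are cleared. In mouse, 4 of the genes lie together on chromosome 9, Apoa1, Apoc3, Apoa4 and Apoa5, within 43.3 kb from 46036663 to 46080002 of the mm9 build. Apoc2, Apoc1 and Apoe lie within 27.6 kb of chromosome 7, from 20256928 to 20284515. Apoa2 spans 173155185 to 173156510 on chromosome 1, Apob 7984454 to 8023641 on chromosome 12 and Apom 35265942 to 35268995 on chromosome 17.

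Several facts of the whole series bear on the values. Myod1 was at 3.52 FPKM in Myod1_active and listed at 0 in the other 6 libraries. The libraries of the Myod1 experiment and the other 4 differ in more than their labels: the X-inactivation transcript Xist was at 0.00420 to 0.324 FPKM in Myod1_active and Myod1_control and at 56.9 to 82.2 in the SunTag and WT libraries, and the Y-linked Eif2s3y was at 30.3 to 37.3 and at 0 to 0.531 FPKM, so the experiment and the sex of the mice cannot be told apart. Hepatocyte markers were present in all libraries, with all 10 listed genes expressed. The 10 Kupffer cell markers with a row, genes of the resident liver macrophages, were all at or above 1 FPKM in at least 1 library. They summed to 72.2 FPKM in Myod1_active, 68.8 to 75.9 in Myod1_control, 373 to 607 in SunTag and 347 to 441 in WT. Endothelial markers summed to 34.3 FPKM in Myod1_active, 47.4 to 51.0 in Myod1_control, 162 to 178 in SunTag and 164 to 176 in WT, with all 6 listed genes expressed, and none of these marker lists had a gene at 0 in every library. Bulk tissue cannot tell fewer cells of a type from less RNA per cell. SunTag replicate 1 correlated less with the other libraries of its experiment (Pearson's r 0.943 to 0.948 across genes) than these did with each other (0.955 to 0.958). Whether libraries of a group stand for different mice is not stated in the labels. The p-values therefore refer to the spread among libraries, which may be technical.

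Apolipoprotein mRNA was among the most abundant in every liver. Summed over the 10 genes it made up 8.26% to 12.3% of the FPKM of all genes spanning at least 300 bp, and 3.89% to 6.60% of the FPKM of all genes. Apoe headed the 10 in all 7 libraries and Apoa2 came second in 6 of them. Apoc1, Apoa1 and Apoc3 formed the next tier, and their order changed between libraries of the same group: Apoa1 was above Apoc3 in SunTag replicate 1 (8738 against 7684 FPKM) and below it in replicate 2 (5211 against 7708). Apom, Apob, Apoc2 and Apoa5 were lower. Their order was the same in all SunTag and WT libraries and changed among the libraries of the Myod1 experiment. Apoa4 was lowest in 6 libraries and 6th of the 10 in Myod1_active. Principal transcripts of Apoa2, Apoc1 and Apoc3 are only 432 to 532 nt long in the GENCODE annotation. FPKM of such short transcripts depends on the fragment length, which the sources do not give.

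**Figure D1:**
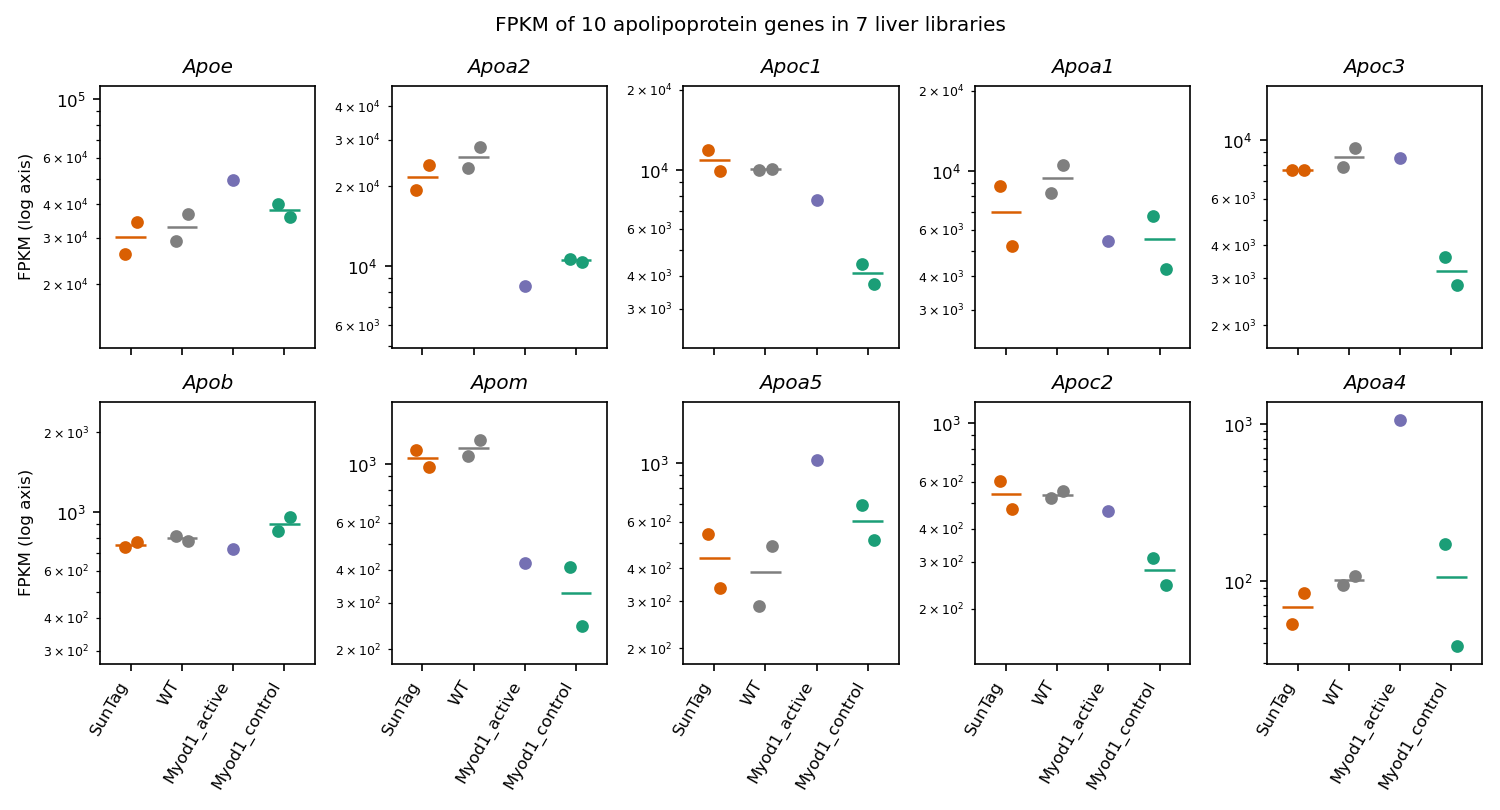
FPKM (log axis) of each of the 10 genes in the 7 libraries, 1 panel a gene, with groups on the horizontal axis. Points are libraries and lines are group means. The Myod1_active point for Apoa4 lies at 1063 FPKM, above the 6 other libraries (38.6 to 173), while Apoc1, Apoc2 and Apoc3 are lowest in the 2 Myod1_control libraries.

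Between SunTag and WT livers none of the 10 genes differed by limma's test (adjusted p = 1 for each), where 0.127% of all tested genes passed. Without adjustment, 0 of the 10 had a p under 0.05, where 1.95% of all genes did. Differences of log2(FPKM + 1) are given throughout after subtracting the shift of the median gene, while p and adjusted p belong to the fit before it. The differences of the 10 genes lay between -0.60 for Apoa4 and 0.17 for Apoa5, with a median of -0.15. Apoa4 was at -0.26 without SunTag replicate 1 and at -0.93 without SunTag replicate 2, and Apoa1, at -0.48, was at -0.83 and -0.11 in those fits. With quantile normalization Apoa1 was lowest at -1.03, and 1 of the 10 had an unadjusted p under 0.05. In 3 of the 10 genes, Apoa4, Apob and Apoc3, both SunTag libraries lay below both WT libraries, where 25.8% of all genes had groups that did not overlap and 12.8% had SunTag lower. With 2 libraries a group the intervals are wide: a 95% confidence interval of -0.46 to 0.27 for Apob and -2.47 to 1.26 for Apoa4.

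Apob, the VLDL scaffold, was the steadiest of the 10. It had 741 and 768 FPKM in SunTag livers, against 814 and 779 in WT livers. In Myod1_active it was at 727 FPKM, against 851 and 959 in the Myod1_control livers. The highest library was 1.32 times the lowest, the smallest such ratio among the 10 genes. Between Myod1_active and Myod1_control the log2 difference was -0.57 (SE 0.173, limma adjusted p = 0.359), and between Myod1_control and SunTag it was 0.39 (SE 0.141, adjusted p = 0.229). The tests were made before the shift of the median gene was taken off, on differences of -0.31 and 0.26.

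Of the HDL genes Apoa1, Apoa2 and Apom, the last 2 separated the experiments and Apoa1 did not. Apoa1, the main HDL protein and the activator of Lcat, had 8738 and 5211 FPKM in SunTag livers, against 8248 and 10495 in WT livers. It was at 5451 FPKM in Myod1_active, between the 6735 and 4283 of the 2 Myod1_control livers. Replicates of a group thus differed by up to 1.68-fold, and neither the log2 difference of Myod1_active from Myod1_control (-0.23, SE 0.450, limma adjusted p = 1) nor that of Myod1_control from SunTag (-0.19, SE 0.367, adjusted p = 0.529) passed. Before the shift of the median gene was taken off, the difference of Myod1_active from Myod1_control was 0.021, so its sign depends on that step.

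Apoa2, the other main HDL protein, separated the experiments. It was at 8407 FPKM in Myod1_active, against 10635 and 10397 in Myod1_control livers. SunTag livers had 19408 and 24136 FPKM, against 23469 and 28007 in WT livers. No library of the Myod1 experiment overlapped the other 4. Apoa2 fell in Myod1_control relative to SunTag, with a log2 difference of -0.91 (SE 0.210, limma adjusted p = 0.0309), while the lower value of Myod1_active relative to Myod1_control did not pass (-0.58, SE 0.257, adjusted p = 0.500).

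Apom, a lipocalin on HDL that carries sphingosine 1-phosphate, was at 423 FPKM in Myod1_active, against 408 and 245 in Myod1_control livers. It was at 1128 and 972 FPKM in SunTag livers, against 1068 and 1233 in WT livers. The 2 sets of libraries did not overlap here either, and in Myod1_control relative to SunTag it had the largest fall of the 10 (log2 difference -1.59, SE 0.281, limma adjusted p = 0.0233). Between Myod1_active and Myod1_control the difference was 0.17 (SE 0.344, adjusted p = 0.511).

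Apoc1, Apoc2 and Apoc3 moved alike across the 7 libraries. Apoc2 is the cofactor of lipoprotein lipase, Apoc3 inhibits that lipase and remnant uptake, and Apoc1 inhibits remnant binding and, in human plasma, cholesteryl ester transfer. Each gene's log2 profile was centred on its mean over the libraries, and the mean absolute difference between centred profiles was 0.17 for Apoc1 and Apoc3, 0.17 for Apoc1 and Apoc2 and 0.23 for Apoc2 and Apoc3, the 3 smallest of the 45 pairs. Apoc3 lies on chromosome 9 and the other 2 on chromosome 7. Genes outside the family came closer: Pfdn1 at 0.046 from Apoc1, Polr2f at 0.045 from Apoc2 and Copz2 at 0.10 from Apoc3. The likeness is thus not particular to the C genes. In Myod1_active the centred value was 0.44 for Apoc3, against 0.010 for Apoc1 and 0.10 for Apoc2. These are descriptions over 7 libraries of 2 experiments.

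Apoc3 was at 8507 FPKM in Myod1_active, against 3607 and 2823 in Myod1_control livers. It was at 7684 and 7708 FPKM in SunTag livers, against 7919 and 9288 in WT livers. The activated library thus lay within the range of the SunTag and WT libraries, and the 2 controls lay below all 5. Apoc3 fell in Myod1_control relative to SunTag (log2 difference -1.13, SE 0.202, limma adjusted p = 0.0225). Its higher value in Myod1_active than in Myod1_control did not pass over all genes (1.16, SE 0.247, adjusted p = 0.152, unadjusted p = 0.00239).

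Apoc1 was at 7681 FPKM in Myod1_active, against 4432 and 3723 in Myod1_control livers. It was at 11896 and 9895 FPKM in SunTag livers, against 9972 and 10105 in WT livers. The activated library lay between the controls and the 4 other livers. The fall in Myod1_control relative to SunTag had a log2 difference of -1.28 (SE 0.193, limma adjusted p = 0.0195), and the difference of Myod1_active from Myod1_control was 0.67 (SE 0.236, adjusted p = 0.177).

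Apoc2 was at 468 FPKM in Myod1_active, against 311 and 246 in Myod1_control livers. It was at 605 and 476 FPKM in SunTag livers, against 521 and 554 in WT livers. Apoc2 fell in Myod1_control relative to SunTag (log2 difference -0.82, SE 0.198, limma adjusted p = 0.0325) and did not pass between Myod1_active and Myod1_control (0.51, SE 0.242, adjusted p = 0.217). Its row overlaps 3323 bp of Apoc4, another apolipoprotein gene, so reads there cannot be assigned with certainty to either. Apoc4 was at 1358 FPKM in Myod1_active, 1029 and 857 in Myod1_control, 2843 and 1889 in SunTag and 2145 and 2197 in WT, and it also fell in Myod1_control relative to SunTag (-1.17, adjusted p = 0.0276).

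The 250 bases upstream of the Apoc2 and Apoa2 start sites (RefSeq, GRCm38.p6, the stretch that precedes the transcript in 5′ to 3′ order) are shown because both genes fell in Myod1_control relative to SunTag. Capitals mark matches to short motifs of liver regulators, searched on both strands: the core promoter box TATAAA, the HNF4 motif CAAAGTNCA, the nuclear receptor core AGGTCA, the HNF1 core GTTAAT, the FOXA motif TGTTTAC, the C/EBP motif TTGCNNAA, the cyclic AMP response core TGACGT and the E box CACGTG. The Apoc2 stretch, chr7:19677942-19678191 on the minus strand, holds AGGTCA at position -115 and GTTAAT at position -89 from the start, motifs found in 14.0% and 6.43% of the 32851 upstream stretches of that length. The Apoa2 stretch, chr1:171224804-171225053 on the plus strand, holds TATAAA at position -212 and TGTTTAC at position -77, found in 12.4% and 3.17%. No marked motifs overlap, and a match is only a run of letters. The measured Apoc2 row runs from 20256928 to 20266772 of mm9 and covers the whole Apoc4 row (20263443 to 20266765). It may hold transcripts that start upstream of the RefSeq start shown, which was not tested.
Apoc2: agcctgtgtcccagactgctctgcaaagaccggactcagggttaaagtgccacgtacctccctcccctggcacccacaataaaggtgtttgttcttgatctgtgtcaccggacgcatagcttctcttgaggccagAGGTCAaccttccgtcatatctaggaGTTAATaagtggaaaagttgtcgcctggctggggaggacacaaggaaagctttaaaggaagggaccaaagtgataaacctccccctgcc
Apoa2: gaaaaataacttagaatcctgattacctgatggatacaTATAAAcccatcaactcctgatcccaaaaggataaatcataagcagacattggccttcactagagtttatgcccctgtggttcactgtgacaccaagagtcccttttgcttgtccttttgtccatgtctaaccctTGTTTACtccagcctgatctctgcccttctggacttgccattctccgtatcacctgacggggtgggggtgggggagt

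Apoa4 showed the widest swing of the 10. It is a protein of chylomicrons and HDL that hepatocytes and enterocytes make, and liver levels in mouse are known to follow triglyceride load. Myod1_active had 1063 FPKM of Apoa4, against 173 and 38.6 in the Myod1_control livers. SunTag livers had 53.0 and 83.8 FPKM, against 94.2 and 108 in WT livers. The activated library was 10.04 times the mean of its controls and the highest of all 7, while the controls differed from each other by 4.49-fold, more than any other member in any group. The log2 difference of Myod1_active from Myod1_control was 3.43 (SE 0.886, 1 library against 2) and did not pass over all genes (limma adjusted p = 0.170, unadjusted p = 0.00912). Without Myod1_control replicate 1 it was 4.49 and without replicate 2 it was 2.36. Myod1_control did not differ from SunTag by the test (0.43, SE 0.723, adjusted p = 0.784), and that sign turned without Myod1_control replicate 1 (-0.63).

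An antisense transcript, Gm10680, overlaps 839 bp of the Apoa4 row. It was listed at 2005 FPKM in Myod1_active, 304 and 73.7 in Myod1_control, 109 and 156 in SunTag and 175 and 207 in WT, which is 1.75 to 2.06 times Apoa4 in each library. The sources do not say whether counting used strand, so reads of the pair cannot be told apart and the level of Apoa4 itself is uncertain. Enterocytes are the other source of Apoa4. Of their 10 listed markers, Fabp2, Anpep and Vil1 reached 1 FPKM in any library, and Alpi, Sis and Cdx1 were listed at 0 in all 7. The summed level of the list was 117 FPKM in Myod1_active, 79.5 to 81.2 in Myod1_control, 67.1 to 69.3 in SunTag and 76.5 to 79.0 in WT. Fabp2 was at 9.81 FPKM in Myod1_active, 19.5 and 17.7 in Myod1_control, 42.5 and 25.5 in SunTag and 35.7 and 31.5 in WT. Anpep, which liver also expresses, was at 106 FPKM in Myod1_active, 59.3 and 63.3 in Myod1_control, 24.6 and 43.4 in SunTag and 43.1 and 44.9 in WT. Vil1, with little FPKM throughout, was at 1.37 in Myod1_active, 0.688 and 0.149 in Myod1_control, 0.0538 and 0.387 in SunTag and 0.125 and 0.116 in WT. The part of these cells in the Apoa4 values was not tested.

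Apoa5, which promotes lipolysis of triglyceride at the vessel wall, shares the cluster with Apoa4. It was at 1027 FPKM in Myod1_active, against 693 and 510 in Myod1_control livers. It was at 538 and 337 FPKM in SunTag livers, against 288 and 486 in WT livers. The activated library was the highest of the 7, but WT replicates alone differed by 1.69-fold and the log2 difference from Myod1_control was 0.53 (SE 0.456, limma adjusted p = 0.377). Between Myod1_control and SunTag the difference was 0.62 (SE 0.373, adjusted p = 0.373).

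Upstream stretches of these neighbours are shown because both were highest in Myod1_active, with the same motifs in capitals. The 102 bases of Apoa4, chr9:46240594-46240695 on the plus strand of GRCm38.p6, are those ahead of both the RefSeq and the GENCODE start and hold CAAAGTTCA at position -182 from the RefSeq start, a form of the HNF4 motif found in 1.19% of stretches. The 250 bases of Apoa5, chr9:46268383-46268632 on the plus strand, hold CACGTG at position -107 and TATAAA at position -56, motifs found in 6.02% and 12.4%. Among the 8 members with a RefSeq stretch, the HNF4 motif matched in Apoa4 and TATAAA in Apoa2, Apoa5 and Apob.
Apoa4: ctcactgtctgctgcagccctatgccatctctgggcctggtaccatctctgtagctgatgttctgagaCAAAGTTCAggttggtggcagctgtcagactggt
Apoa5: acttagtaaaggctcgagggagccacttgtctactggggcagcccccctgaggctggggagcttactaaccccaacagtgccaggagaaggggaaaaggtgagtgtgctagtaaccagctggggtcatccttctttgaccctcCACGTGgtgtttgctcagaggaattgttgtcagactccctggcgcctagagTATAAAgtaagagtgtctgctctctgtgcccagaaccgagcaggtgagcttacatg

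Apoe, the ligand through which remnants bind their receptors on hepatocytes, was the most abundant of the 10. It was at 49508 FPKM in Myod1_active, against 40149 and 35845 in Myod1_control livers. It was at 26045 and 34325 FPKM in SunTag livers, against 29087 and 36912 in WT livers. The activated library was the highest, and the controls overlapped the WT livers but not the SunTag livers. Neither difference passed: Myod1_active from Myod1_control was 0.13 (SE 0.307, limma adjusted p = 0.501) and Myod1_control from SunTag was 0.48 (SE 0.250, adjusted p = 0.345). Macrophages also express Apoe, and the Kupffer cell marker sums given above were lower in Myod1_control than in SunTag, opposite to Apoe. The part of these cells in the Apoe values was not tested.

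The make-up of the summed apolipoprotein FPKM differed between experiments. Apoe took 59.5% of it in Myod1_active, 59.0% and 60.7% in Myod1_control, 33.9% and 40.9% in SunTag and 35.7% and 37.7% in WT. Apoa2 took 10.1% in Myod1_active, 15.6% and 17.6% in Myod1_control, 25.3% and 28.8% in SunTag and 28.8% and 28.6% in WT. Apoc3 took 10.2% in Myod1_active, 5.31% and 4.78% in Myod1_control, 10.0008% and 9.19% in SunTag and 9.72% and 9.48% in WT. Apoc3 in the activated library was thus near the SunTag and WT shares while Apoe and Apoa2 were not.

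**Figure D2:**
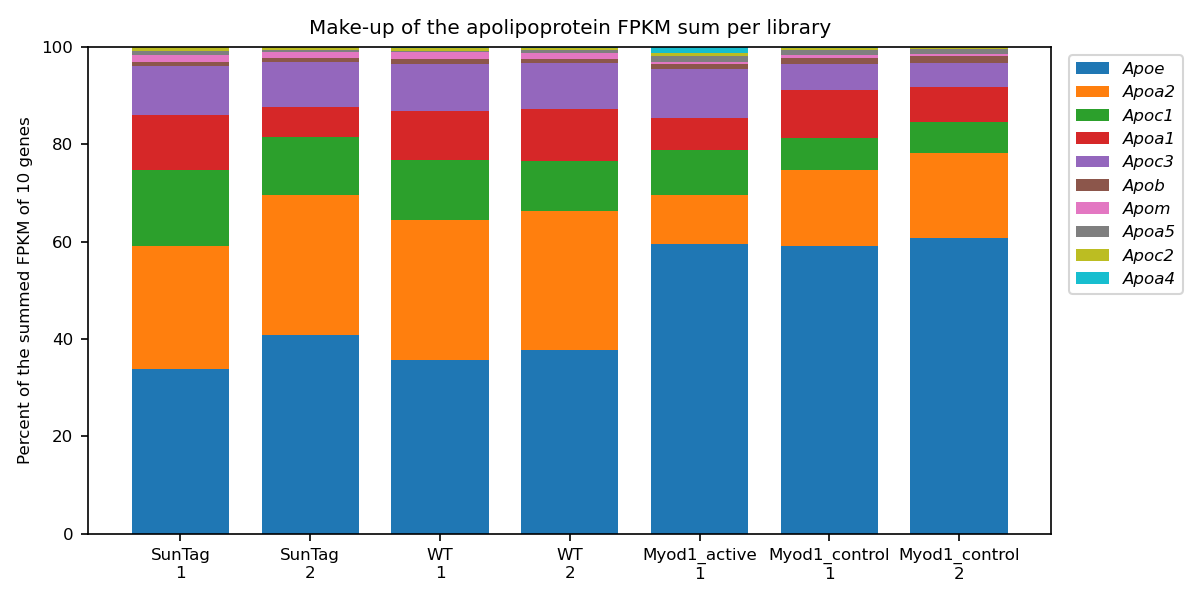
Share of each gene in the summed FPKM of the 10 apolipoprotein genes (vertical axis, percent), 1 bar a library. Apoe takes 59.0% to 60.7% in Myod1_active and Myod1_control and 33.9% to 40.9% in SunTag and WT.

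Counted over the 10 genes, Myod1_active differed from Myod1_control in none by limma's adjusted p, and 0.254% of all tested genes passed. Without adjustment 4 of the 10, Apoa4, Apoc1, Apoc2 and Apoc3, had p under 0.05, where 19.5% of all genes did. That count was 1 in a fit of these groups alone, 3 with median-ratio scaling, 5 without Myod1_control replicate 1 and 3 without Myod1_control replicate 2. The activated library lay above both controls in 7 of the 10 genes and below both in Apoa2 and Apob, so 9 of 10 were outside the control range. Of all genes, 78.0% were outside it, 61.4% above and 16.6% below. Relative to the median gene, Apoa4 and Apoc3 were at least 2-fold higher, as were 3.11% of all genes, and 0 were at least 2-fold lower, where 4.02% of all genes were. The median log2 difference over the members was 0.34, and the quartiles of all genes were -0.27 and 0.27. The activated group is 1 library, so it has no replicate check, and the fit assumes that it varies like the other groups.

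Counted the same way, Myod1_control fell relative to SunTag in 5 of the 10, Apoa2, Apoc1, Apoc2, Apoc3 and Apom, and rose in none. In this comparison 24.3% of all genes passed, with 17.0% lower and 7.3% higher. The groups did not overlap in 7 of the 10, where 66.6% of all genes did not. Of the 7, 5 were lower and 2, Apob and Apoe, were higher, where 41.6% of all genes were lower and 24.9% higher. The 5 genes that fell have the shortest principal transcripts of the 10, from 432 nt to 1013 nt for Apom. Those of the other members are 1035 nt for Apoa1 up to 13934 nt for Apob. FPKM of short transcripts depends on the fragment length, and the part of transcript length in the falls was not tested. The calls depended on which libraries were in the fit. None of the 5 passed without Myod1_control replicate 1 (adjusted p 0.0719 to 0.113), Myod1_control replicate 2 (0.0821 to 0.124), SunTag replicate 1 (0.0585 to 0.0931), WT replicate 1 (0.0701 to 0.0878) or WT replicate 2 (0.0704 to 0.0885), and Apoa2 was lost without SunTag replicate 2 (0.0808). All 5 log2 differences stayed negative in these fits, between -1.95 and -0.64. Without WT replicate 1 or 2, which are not in this comparison, they lay between -1.59 and -0.82, as with all libraries. There the spread shared over the fit changed rather than the differences. Over all genes 3832 passed, against 127 and 126 without Myod1_control replicate 1 or 2, 918 without SunTag replicate 1 and 59 and 58 without WT replicate 1 or 2, which bears on every count for this comparison given below. The 10 hepatocyte markers summed to 64423 to 69672 FPKM in Myod1_control, against 84130 to 86525 in SunTag, and their part in the 5 falls was not tested. Alb had the largest share of that sum, at 30586 and 35431 FPKM in Myod1_control, against 46476 and 48271 in SunTag. The markers did not all run the same way: Cps1 was at 981 and 1071 FPKM in Myod1_control, against 637 and 642 in SunTag, Trf at 14909 and 18249 in Myod1_control, against 14586 and 12290 in SunTag, and Hnf4a at 150 and 181 in Myod1_control, against 138 and 146 in SunTag. This comparison sets livers of different experiments and sexes side by side, and its parts cannot be told apart. The 2 comparisons share the Myod1_control libraries with opposite sign, so a low value there lowers the difference from SunTag and raises that of Myod1_active.

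**Figure D3:**
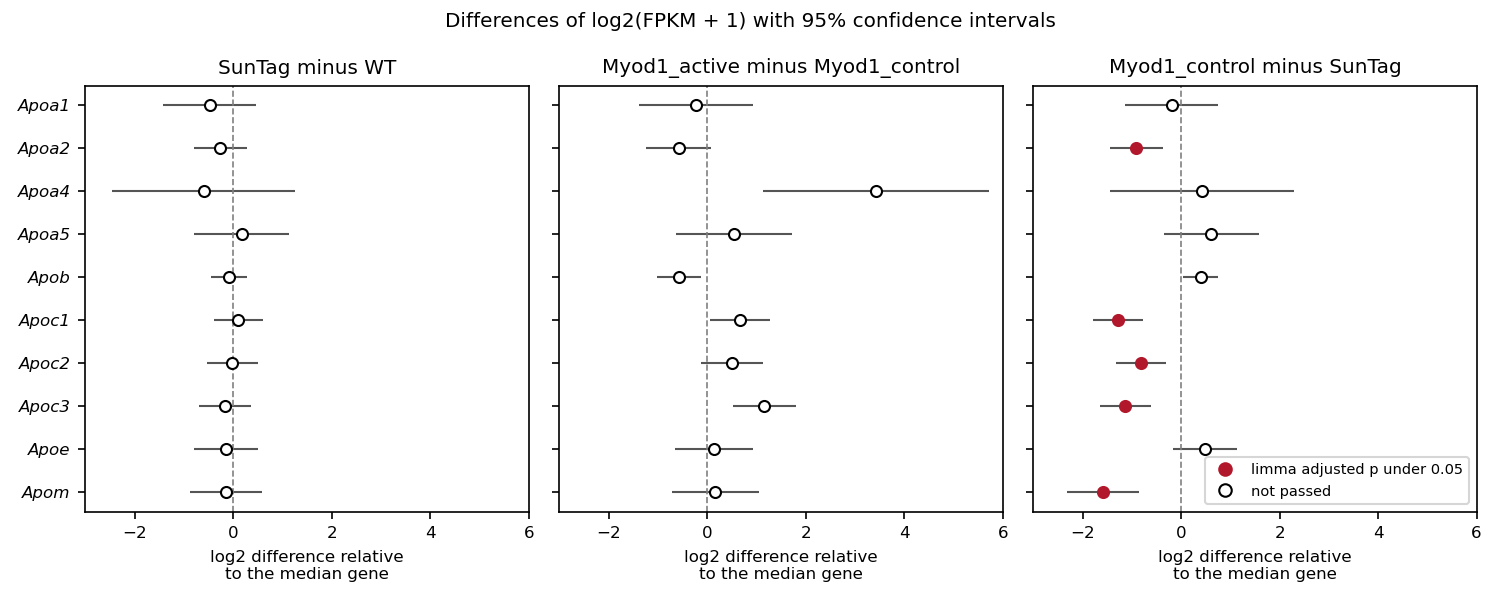
Log2 differences of log2(FPKM + 1) relative to the median gene (horizontal axis) for the 10 genes in 3 comparisons, with 95% confidence intervals as lines. Filled points passed limma's adjusted p of 0.05: 5 genes, all in Myod1_control against SunTag, from -1.59 for Apom to -0.82 for Apoc2.

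**Figure D4:**
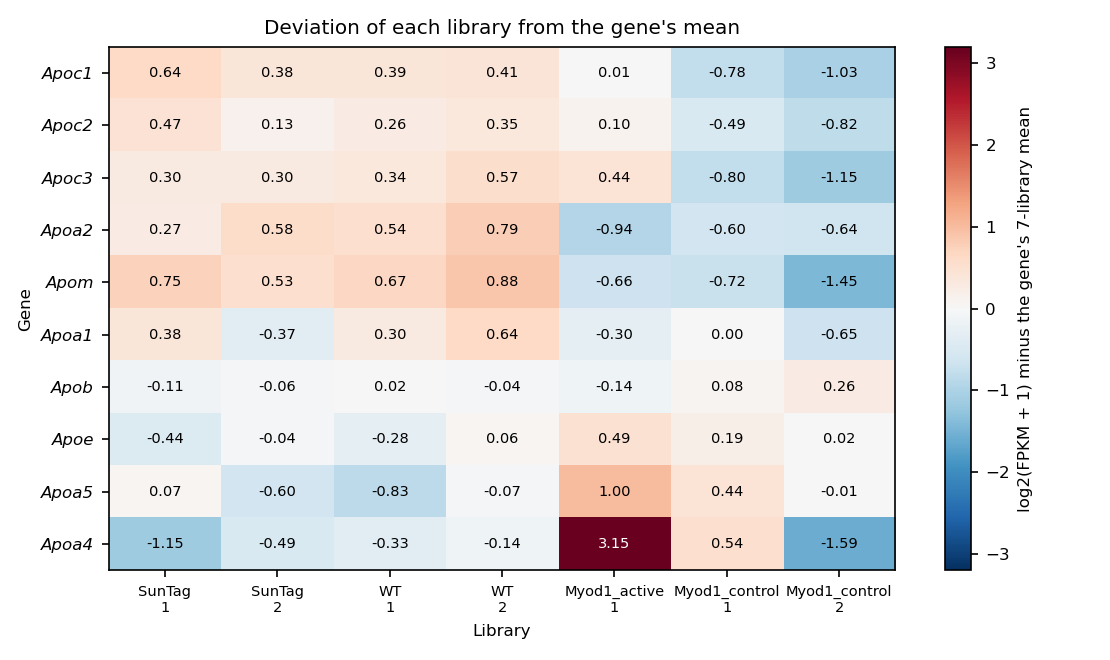
Log2(FPKM + 1) of each gene (rows) in each library (columns) minus that gene's mean over the 7 libraries, with the value printed in the cell. Apoc1, Apoc2 and Apoc3 share a pattern with negative values in the 2 Myod1_control libraries only, and Apoa4 reaches 3.15 in Myod1_active and -1.59 in Myod1_control replicate 2.

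The genes outside the family whose centred profiles came nearest, among 4623 named genes with a mean of at least 10 FPKM, were as follows. For Apoc1 they were Pfdn1 and Uqcr11 (mean absolute difference 0.046 and 0.057 log2 units), for Apoc2 Polr2f and Mrpl52 (0.045 and 0.053), for Apoe Pigt and Csnk1d (0.043 and 0.050), and for Apob Chmp7 and Rcbtb1 (0.043 and 0.052). For Apoa1 they were Sdc4 and Ccdc21 (0.12 and 0.17), for Apoa2 Sepx1 and Car8 (0.11 and 0.11), for Apoc3 Copz2 and Gnai2 (0.10 and 0.13), and for Apom Ifitm1 and Tomm6 (0.12 and 0.14). Apoa5 was nearest to Cebpb and Tpmt (0.11 and 0.17). Apoa4 had no close match: Rdm1 and Frmd8 were nearest at 0.42 and 0.49, where the median candidate was at 1.06. For the other members the median candidate lay between 0.29 for Apob and 0.79 for Apom, with 0.32 for Apoe. A small distance of a steady gene such as Apob therefore cannot be set beside that of a gene that varies more.

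Of 19 listed other apolipoprotein genes 15 were expressed enough to test, and 0 passed between SunTag and WT or between Myod1_active and Myod1_control. Between Myod1_control and SunTag 1 rose and 5 fell, where 7.3% of all genes rose and 17.0% fell. The median log2 difference of the 15 was -0.59. Of the 15, only Clu lay above the median gene, and in 13 both Myod1_control libraries lay below both SunTag libraries, where 41.6% of all genes did. The riser was Clu, a chaperone on HDL also called apolipoprotein J, at 1432 and 1123 FPKM in Myod1_control, against 600 and 769 in SunTag livers (1.04, adjusted p = 0.0422). Those that fell were Apoc4, Apol7c, Apol9a, Apol9b and Saa2. Apol9a and Apol9b are near-identical copies, so the value of each is uncertain. The same holds for Saa2, an acute phase protein of HDL that shares sequence with Saa1, at 19.3 and 5.97 FPKM in Myod1_control, against 167 and 55.3 in SunTag.

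Among genes that lipidate and secrete Apob-containing particles more rose than fell. Of 18 tested, 6 rose and 1 fell in Myod1_control relative to SunTag, where 7.3% of all genes rose and 17.0% fell. The median log2 difference of the 18 was 0.56. Mttp, which transfers lipid to Apob, was at 101 and 128 FPKM in Myod1_control, against 43.8 and 56.4 in SunTag (1.31, adjusted p = 0.0240). Sar1b and Surf4, which carry lipoproteins out of the endoplasmic reticulum, rose by 0.80 and 0.99 (adjusted p = 0.0328 and 0.0337). Mia2, Sort1 and A1cf, the partner of the Apob mRNA editing enzyme Apobec1, rose by 1.34, 1.32 and 1.07. Tm6sf2, a VLDL lipidation factor, fell to 13.3 and 16.1 FPKM in Myod1_control, against 34.0 and 41.8 in SunTag (-1.17, adjusted p = 0.0182). None of the 18 passed in the other 2 comparisons. In Myod1_active Mttp was at 94.3 FPKM (adjusted p = 0.556 against Myod1_control).

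Enzymes and inhibitors that remodel particles in plasma were mixed. Of 20 tested, 3 rose and 3 fell in Myod1_control relative to SunTag, where 7.3% of all genes rose and 17.0% fell. Lpl, Abca1 and Angptl4 rose, and those that fell included Gpihbp1 and Angptl6. The median log2 difference of the 20 was 0.27. None of the 20 passed in the other 2 comparisons. Gpihbp1, the endothelial anchor of lipoprotein lipase, was at 4.66 and 7.11 FPKM in Myod1_control, against 35.3 and 30.7 in SunTag (-2.19, adjusted p = 0.0143), and the endothelial marker sums given above were lower in the same libraries, whose part in it was not tested. Abca1, which loads lipid on Apoa1, was at 40.5 and 54.0 FPKM in Myod1_control, against 13.0 and 17.0 in SunTag (1.73, adjusted p = 0.0183). Angptl4, an inhibitor induced by fasting, was at 69.6 and 61.3 FPKM in Myod1_control, against 26.7 and 11.8 in SunTag (1.95, adjusted p = 0.0328).

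Of 10 receptor genes and their regulators tested, 2 fell in Myod1_control relative to SunTag, where 17.0% of all genes fell. They were Sdc1, a heparan sulphate proteoglycan that binds remnants, and Mylip, a ubiquitin ligase of lipoprotein receptors. None of the 10 rose, where 7.3% of all genes did. Sdc1 was at 134 and 122 FPKM in Myod1_control, against 274 and 285 in SunTag (-0.99, adjusted p = 0.0167). No receptor passed between Myod1_active and Myod1_control or between SunTag and WT.

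Transcription factors known to act on apolipoprotein genes were all expressed, 32 of 32. In Myod1_control relative to SunTag 6 rose, Foxa1, Foxa2, Ppara, Creb3l3, Ppargc1a and Mlxipl, and Nr2f2 fell. Of all genes 24.3% passed in this comparison, with 7.3% higher and 17.0% lower. The median log2 difference of the 32 was 0.32. Creb3l3, a liver factor known to drive Apoa4, Apoa5 and Apoc2 in mouse, was at 228 and 235 FPKM in Myod1_control, against 107 and 94.5 in SunTag (1.33, adjusted p = 0.0176). In Myod1_active it was at 134 FPKM, below both controls, a difference from Myod1_control that did not pass (-1.04, adjusted p = 0.165), and its part in the Apoa4 values was not tested. Ppara, the fatty acid sensor, was at 50.9 and 63.5 FPKM in Myod1_control, against 19.5 and 17.4 in SunTag (1.71, adjusted p = 0.0151), and Hnf4a, at 120 FPKM in Myod1_active and 150 and 181 in Myod1_control, passed in no comparison. None of the 32 passed between Myod1_active and Myod1_control or between SunTag and WT.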

How the data were processed

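Liver RNA of 7 libraries was measured by sequencing, with 1 table per library. The deposited values are FPKM per gene with an interval, as Cufflinks writes them per the file headers. The submitters' processing notes name build mm9 and cutadapt 1.11, Cufflinks 2.2.1 and TopHat2 2.1.1. Settings, strand use and the annotation are not given there. Read counts are unknown, so no counting interval is given, and 7 to 9 of the 10 apolipoprotein values per library lay outside their own deposited interval, which was therefore not used as an error.

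After removing 343 rows with a status other than OK and adding up rows of one symbol (244 symbols), genes reaching 1 FPKM in any library were kept. limma 3.58.1 (R 4.3.3) was run on log2 of the deposited FPKM plus 1, fitting 4 group means to the 7 libraries with a trended empirical Bayes variance. Tests were two-sided and adjusted over all 15744 genes by Benjamini-Hochberg at 0.05. The median gene shifted by 0.014 between SunTag and WT, by 0.25 between Myod1_active and Myod1_control and by -0.14 between Myod1_control and SunTag. Printed differences and intervals have that shift taken off, while p and adjusted p belong to the fit before it. Because of the pseudocount, changes of genes with little FPKM are understated. The code was tested on simulated data. Table positions, which count starts from 0, were raised by 1.

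The members and the gene lists were chosen with earlier results of these data known. Named genes are the 10 members, list genes that passed, up to 4 further genes a list by mean FPKM, and the 2 nearest profiles per member. Alternatives were other pseudocounts, filters, scalings, a fit of 2 groups, a replicate block and each library left out. Sequences are RefSeq upstream stretches of GRCm38.p6, matched by symbol for 8 members. Some genes of the lists are not reported here.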

Additional observations from a re-analysis of the deposited data

How the results depend on the processing

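Between SunTag and WT and between Myod1_active and Myod1_control, 0 of the 10 genes passed under every alternative run, with limma in each. The count of 5 in Myod1_control against SunTag was 1 with no filter on low values, 3 with median-ratio scaling, 0 in a fit of these groups alone, and between 0 and 5 with 1 library left out. The cause was not tested. All 5 kept a negative log2 difference, between -1.95 and -0.54 over all settings. With the replicate block the counts were 0, 0 and 5. Same-numbered libraries did not deviate together (correlation 0.043 for SunTag with WT and 0.00076 for Myod1_control with SunTag), so the numbers were not taken as pairs.

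Directions that turned were all of genes that did not pass. With quantile normalization Apoc1 in SunTag against WT was -0.27 and Apoa1 in Myod1_active against Myod1_control was 0.19. With 1 library left out, the SunTag against WT differences lay between -0.24 and 0.57 for Apoa5, -0.018 and 0.23 for Apoc1, -0.17 and 0.15 for Apoc2 and -0.35 and 0.070 for Apoe. Those of Myod1_active against Myod1_control lay between -0.55 and 0.087 for Apoa1 and -0.19 and 0.52 for Apom. Those of Myod1_control against SunTag lay between -0.58 and 0.17 for Apoa1 and -0.63 and 1.51 for Apoa4.

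Over all genes, 20 passed in SunTag against WT, 5 with short genes left out and median-ratio scaling, 31 in the fit of these groups alone and 23 to 79 with 1 library left out. In Myod1_active against Myod1_control 40 passed, 23 with a pseudocount of 0.1, 253 with no filter, 9 with short genes left out and median-ratio scaling, 23 with the replicate block, 0 in the fit of these groups alone (limma; no other tool was run) and 49 to 119 with 1 library left out. In Myod1_control against SunTag 3832 passed, 1149 higher and 2683 lower, 255 in the fit of these groups alone and 58 to 4070 with 1 library left out. Median-ratio scaling split its 3580 calls into 1735 higher and 1845 lower.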

Other observations

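Some genes outside the family had values that were chosen after they were seen. The lipase inhibitor Angptl4 was at 11.2 FPKM in Myod1_active, against 69.6 and 61.3 in Myod1_control livers, and at 26.7 and 11.8 in SunTag and 39.8 and 35.4 in WT livers (log2 difference of Myod1_active from Myod1_control -2.69, limma adjusted p = 0.155). Dgat2, which makes the triglyceride that Apob particles carry, was at 401 FPKM in Myod1_active, against 219 and 200 in Myod1_control livers (0.69, limma adjusted p = 0.179).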
